A study of Mus musculus with 23 samples.

Results

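The 10 members described here are the genes of the BCL2 family that set whether a cell survives or dies at its mitochondria. They are the survival genes BCL2, BCL2L1 (BCL-XL), MCL1 and BCL2A1 (A1), the pore-forming effectors BAX and BAK1, and the BH3-only death genes BCL2L11 (BIM), BBC3 (PUMA), PMAIP1 (NOXA) and BID. They were taken by name from the deposited table, which lists mouse genes under human symbols. A repeated name was represented by its most abundant profile, by the mean of the 23 libraries. All 10 were found, 10 of 15747 named genes above 0 in any library, and all 10 passed the filter on low counts. The list was chosen by function and not by level, although the profile used for BCL2A1 was chosen by its mean level.

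Total RNA was sequenced from tumors of IL6Myc transgenic mice, a plasma cell tumor model, and from B cells of wild-type Balb/c mice. The tumors were 7 from the mesenteric lymph node (MLN) and 7 from the spleen of 8 mice, untreated and labelled malignant plasma cells, and 6 of the mice gave both. The other groups were 5 libraries of wild-type splenic B cells kept for 16 hours with LPS, a bacterial B cell mitogen, at 1 µg/ml, called activated, and 4 of untreated wild-type splenic B cells, called quiescent. All tissue samples passed magnetic negative selection for B cells. The sources used here name neither the promoters that drive the transgenes nor the age and sex of the mice. No group of B cells cultured without LPS is among the samples, so LPS and the time in culture cannot be told apart.

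BAX and BAK1 form pores in the outer mitochondrial membrane that release cytochrome c and start the caspase cascade. The survival proteins bind and restrain them, and BH3-only proteins, made or activated under stress, either occupy the survival proteins or activate the effectors directly. Naive B cells carry much BCL2, B cells stimulated through LPS or the antigen receptor make BCL2L1 and BCL2A1 through NF-kB, and plasma cells depend on MCL1, which IL6 signaling sustains. MYC is known both to drive growth and to raise death signals through BIM.

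Start regions of 5 of the 8 members called between tumors and quiescent B cells are shown so that the promoters can be read beside the levels. They are the 4 members with a motif match, each by a window that holds one, and Bcl2. Mcl1 and Bak1, whose windows held no match, and PMAIP1 are not shown. The windows are of 300 bases, from 250 before to 50 after the start, taken from RefSeq on build GRCm38.p6, whereas the authors' build was GRCm39. The set of windows used here held 9 of the 10 members, with 17 windows in all. All windows of 1 chromosome were left out of the set before the search, for members and background alike. The set held none for PMAIP1, so that start region was not searched. In each, 4 motifs were searched on both strands: the E-box CACGTG that MYC binds, TTCNNNGAA of STAT factors, GTAAACA of FOXO factors and the NF-kB motif by name. Capitals mark a motif match, which is the NF-kB motif in Bcl2l1, GTAAACA in Bcl2l11 and CACGTG in Bbc3 and Bax, and Bcl2 had none. Bcl2l1 has 2 further windows and Bcl2l11 has 1, all without a match.
Bcl2 (chr1:106714241-106714540, - strand): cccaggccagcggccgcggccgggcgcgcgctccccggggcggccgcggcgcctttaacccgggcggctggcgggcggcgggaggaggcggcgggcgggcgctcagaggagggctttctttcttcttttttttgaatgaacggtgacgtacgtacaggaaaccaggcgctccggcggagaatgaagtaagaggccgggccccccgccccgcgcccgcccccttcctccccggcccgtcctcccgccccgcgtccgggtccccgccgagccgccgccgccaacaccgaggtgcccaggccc
Bcl2l1 (chr2:152830668-152830967, - strand): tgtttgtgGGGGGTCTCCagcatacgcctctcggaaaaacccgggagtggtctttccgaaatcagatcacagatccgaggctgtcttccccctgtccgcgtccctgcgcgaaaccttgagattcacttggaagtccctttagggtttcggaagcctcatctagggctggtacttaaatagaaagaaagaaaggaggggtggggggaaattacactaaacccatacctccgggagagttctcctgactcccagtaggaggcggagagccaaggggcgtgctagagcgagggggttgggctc
Bcl2l11 (chr2:128125788-128126087, + strand): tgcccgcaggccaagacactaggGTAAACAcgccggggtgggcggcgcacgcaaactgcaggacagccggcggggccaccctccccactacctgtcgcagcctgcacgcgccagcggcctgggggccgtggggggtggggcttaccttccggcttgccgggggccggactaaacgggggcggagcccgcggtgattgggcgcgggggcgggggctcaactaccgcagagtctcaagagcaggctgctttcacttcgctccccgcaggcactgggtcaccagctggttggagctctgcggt
Bbc3 (chr7:16310181-16310480, + strand): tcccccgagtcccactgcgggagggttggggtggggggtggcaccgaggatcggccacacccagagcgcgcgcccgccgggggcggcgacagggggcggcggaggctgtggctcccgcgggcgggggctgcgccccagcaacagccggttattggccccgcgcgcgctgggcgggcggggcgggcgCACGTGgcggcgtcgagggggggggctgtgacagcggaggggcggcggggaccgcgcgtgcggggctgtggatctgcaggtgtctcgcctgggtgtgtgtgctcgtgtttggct
Bax (chr7:45466849-45467148, - strand): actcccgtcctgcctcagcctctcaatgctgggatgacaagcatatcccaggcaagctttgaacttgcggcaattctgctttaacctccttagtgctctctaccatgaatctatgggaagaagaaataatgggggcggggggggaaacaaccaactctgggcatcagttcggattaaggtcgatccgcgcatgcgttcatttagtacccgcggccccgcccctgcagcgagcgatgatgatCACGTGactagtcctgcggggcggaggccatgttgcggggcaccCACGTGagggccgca
The E-box was in 2 of the 17 windows, against 7.15% of the 32851 windows in the set, which does not cover every gene. The NF-kB and FOXO motifs were in 2 windows each, against 4.51% and 3.65% of all windows, and the STAT motif in 0, against 8.30%. The second NF-kB window and the second FOXO window were other starts of Bbc3. A match describes letters only and shows no binding.

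Mice carry several copies of the gene that humans have once as BCL2A1, and 3 of them are shown because their likeness bears on the BCL2A1 values. With gaps counted as differences, the window of another copy, Bcl2a1c, had 44.4%, 61.2% and 42.5% identity to those of Bcl2a1a, Bcl2a1b and Bcl2a1d. These 3 had 70.6% to 94.1% among themselves. Gaps made most of the difference of Bcl2a1c, at 220, 132 and 232. Its aligned bases were close, with 8, 10 and 7 mismatches beside 182, 224 and 177 identical bases. The start regions of the 3 follow, with capitals marking bases that differ from the aligned bases of Bcl2a1a.
Bcl2a1a (chr9:88956670-88956969, + strand): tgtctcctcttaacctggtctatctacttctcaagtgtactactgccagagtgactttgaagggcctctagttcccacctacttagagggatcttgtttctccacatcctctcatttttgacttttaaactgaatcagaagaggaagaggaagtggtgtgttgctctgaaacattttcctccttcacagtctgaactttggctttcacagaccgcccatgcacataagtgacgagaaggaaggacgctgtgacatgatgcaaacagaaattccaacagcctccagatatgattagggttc
Bcl2a1b (chr9:89199023-89199322, + strand): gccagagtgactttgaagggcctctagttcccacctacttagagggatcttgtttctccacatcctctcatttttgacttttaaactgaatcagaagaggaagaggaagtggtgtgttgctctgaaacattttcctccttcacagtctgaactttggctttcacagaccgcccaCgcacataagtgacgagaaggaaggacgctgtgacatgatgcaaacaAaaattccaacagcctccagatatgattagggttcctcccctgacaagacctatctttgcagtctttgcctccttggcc
Bcl2a1d (chr9:88731801-88732100, - strand): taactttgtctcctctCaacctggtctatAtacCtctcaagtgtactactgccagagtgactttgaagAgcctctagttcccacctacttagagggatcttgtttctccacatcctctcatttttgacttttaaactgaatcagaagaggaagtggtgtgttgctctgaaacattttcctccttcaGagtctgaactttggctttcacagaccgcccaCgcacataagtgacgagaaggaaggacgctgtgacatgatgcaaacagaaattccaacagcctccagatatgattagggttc
Over 256 aligned bases the Bcl2a1b window differed from that of Bcl2a1a at 2, and over 294 aligned bases the Bcl2a1d window differed at 6. The longest annotated transcripts were as close, with 98.2% identity between Bcl2a1a and Bcl2a1b, 98.8% between Bcl2a1a and Bcl2a1d and 99.1% between Bcl2a1b and Bcl2a1d over aligned bases.

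Estimated counts summed to between 13328866 and 21897188 per tumor library and between 15529618 and 25045814 per control library. MYC, one of the genes the model is named for, lay at 409 to 1737 CPM in MLN tumors and 312 to 2110 CPM in spleen tumors, against 212 to 231 CPM in activated and 61.4 to 75.5 CPM in quiescent B cells, so every tumor library carried more of it than every control. IL6, the other, stayed at or below 1.66 CPM in tumors, against 49.5 to 73.8 CPM in activated and at most 0.0824 CPM in quiescent B cells. Since the annotation is not given, whether reads of the transgenes are counted under these names is not known. The immunoglobulin share of counts was low in 4 tumor libraries, MLN 1611 and spleen 1610, 1612 and 1615. It was 1.03% to 2.01%, below every quiescent library (from 2.24%). Their mean log2 level of 9 plasma cell markers, 5.54 to 6.23, also lay below every quiescent library (from 6.31). Activated libraries held less immunoglobulin, 0.69% to 0.84% of counts. Their marker mean, 5.66 to 5.82, lay above spleen 1610 and below the others of the 4. Set against quiescent B cells, the 4 tumor libraries go by both measures against the label malignant plasma cell, but for MLN 1611 single markers divide. SDC1, XBP1, PRDM1 and MZB1 were higher in every MLN tumor, 1611 included, than in every quiescent library. TNFRSF13B was lower, and the ranges of the other plasma cell markers overlapped. The mean log2 level of 8 mature B cell markers in the 4 libraries was 9.91 to 10.26, against 10.84 to 10.91 in quiescent B cells. Results that change without these 4 libraries are given both ways. Markers of other cells moved with the tumors: all 8 macrophage, 6 neutrophil and 7 erythroid markers tested were called higher in tumors than in quiescent B cells. So were all 4 dendritic, 5 stromal and 3 platelet markers tested, 6 of 8 T cell, 3 of 5 NK and 1 of 2 endothelial markers, while 1 NK marker was lower. Summed macrophage markers reached 2541 CPM in MLN and 3217 CPM in spleen tumors, against at most 20.9 CPM in activated and 165 CPM in quiescent B cells, and the neutrophil marker ELANE was at 0 in activated libraries. The part of these cells in the results was not tested. Summed Y-linked genes lay between 2.81 and 305 CPM in tumors, at no more than 0.913 CPM in activated and at no less than 348 CPM in quiescent B cells, so sex and activation cannot be told apart between the control groups. Each control group lies at one end of this level, so a fit with it as a covariate takes its slope mainly from the tumor mice. In such bulk samples, fewer cells of a type and less RNA per cell cannot be told apart.

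Levels are CPM, counts scaled by TMM to a common library total, in single libraries. They are not divided by gene length, so they compare libraries for 1 gene and not genes with each other. Log2 changes are from a fit in which both tumors of a mouse were summed, given as change ± approximate SE over 8 tumor mice, 5 activated and 4 quiescent libraries. The adjusted p-values are edgeR's, over 11637 genes, and a gene is called at an adjusted p under 0.05. Groups without overlap are common here. With both tumors of a mouse summed, tumors did not overlap with quiescent libraries for 47.6% of all genes and with activated ones for 39.9%. Activated and quiescent libraries did not overlap for 67.9%. For members, overlap is judged below on the single-library levels, a measure other than that of these shares. By the measure of the shares, MCL1 and PMAIP1 did not overlap between tumors and quiescent libraries. Nor did BCL2 between activated and quiescent libraries.

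Relative to quiescent B cells, tumors had more BCL2L1, BBC3, BCL2L11, PMAIP1, BAX and BAK1 and less BCL2 and MCL1, with BCL2A1 and BID not called. Thus 8 of the 10 members were called, 6 higher and 2 lower, where 68.7% of all genes tested were called, 36.9% higher and 31.9% lower. Relative to activated B cells, 6 members were called, 2 higher (MCL1 and PMAIP1) and 4 lower (BCL2A1, BCL2, BID and BAK1), where 63.2% of all genes were called, 36.2% higher and 27% lower. Activated B cells themselves had 6 members higher and 1 lower than quiescent B cells, 7 of 10 called, against 59.5% of all genes, 25.5% higher and 34.1% lower. The members' median log2 change was 0.53 for tumors over quiescent, -0.16 for tumors over activated and 0.84 for activated over quiescent B cells, beside 0.08, 0.09 and -0.15 over all genes tested. Counted in either direction, the shares called lie near those of all genes. By direction, the 6 of 10 members higher in tumors and the 6 of 10 higher in activated cells, each relative to quiescent cells, stand above the 36.9% and 25.5% of all genes, a difference that was not tested.

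**Figure D1:**
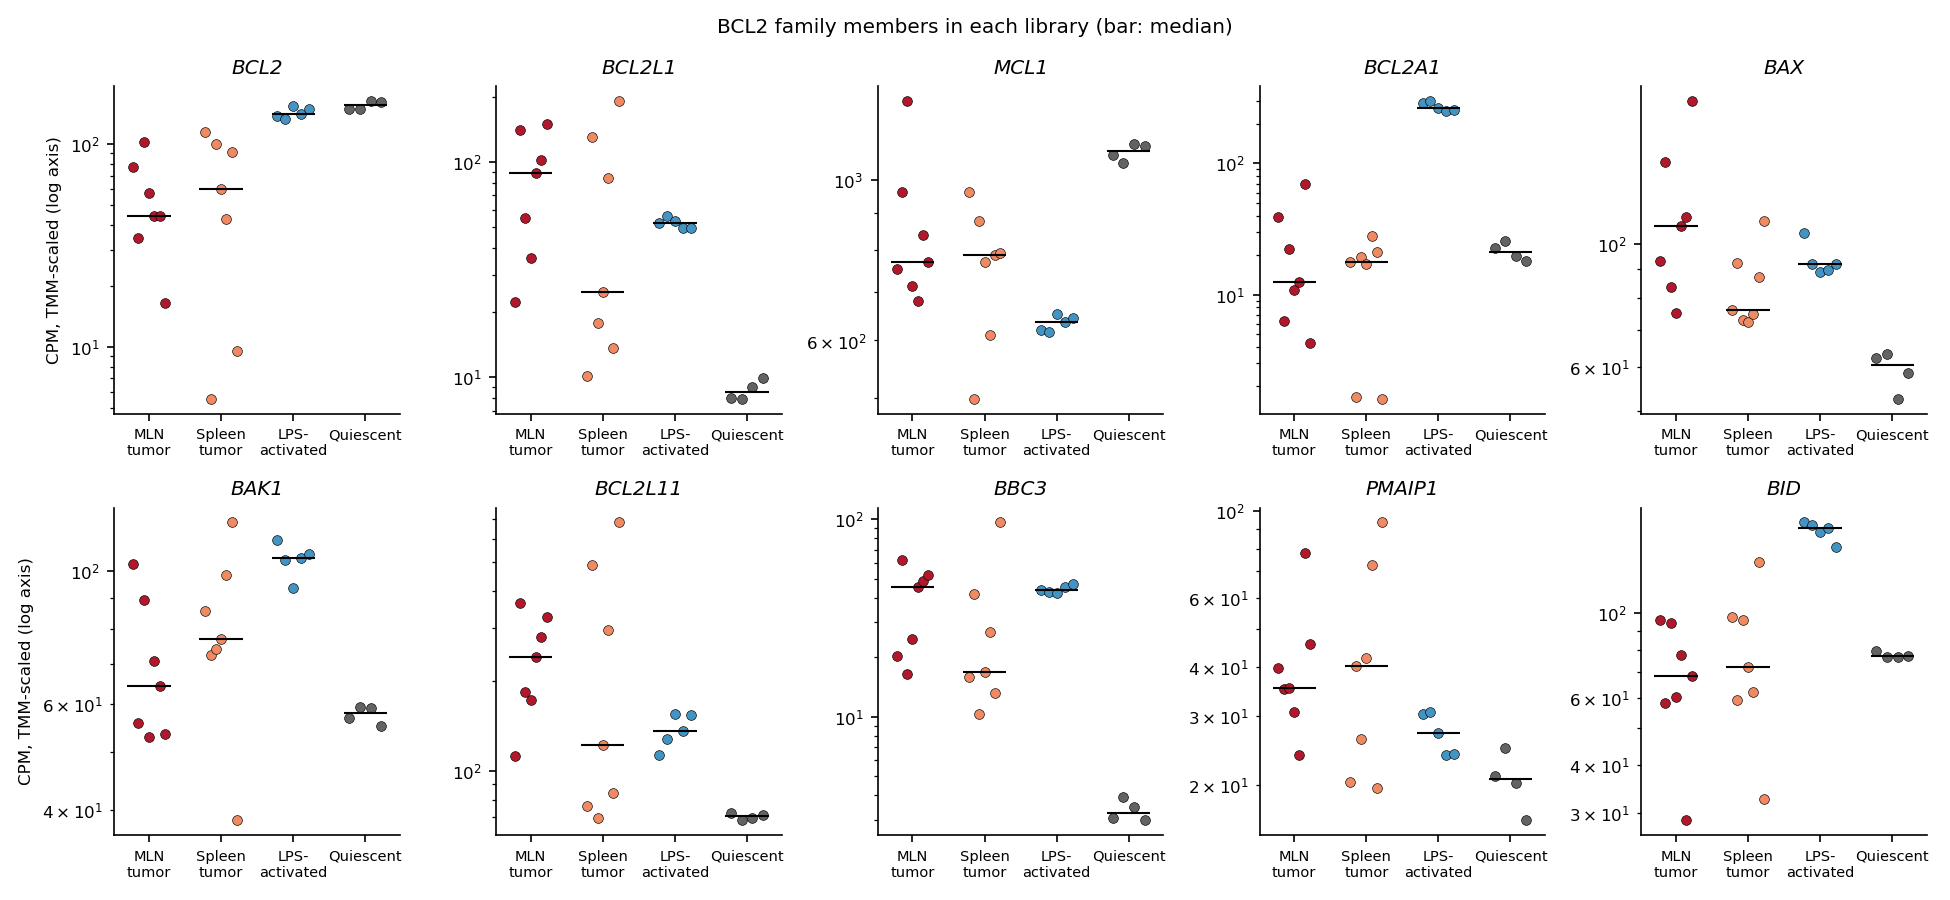
Level of each member in every library, in CPM on a log axis, with 1 point per library and a bar at the median of 7 MLN tumors, 7 spleen tumors, 5 activated and 4 quiescent B cell libraries. Control libraries cluster tightly, while BCL2 spans 5.56 to 115 CPM and BCL2L1 10.1 to 192 CPM among tumors.

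BCL2, the founding survival gene, was low in tumors. Its lowest, median and highest level was 16.4, 44.2 and 103 CPM in MLN tumors and 5.56, 59.9 and 115 CPM in spleen tumors. Activated B cells had 138, 134, 154, 141 and 148 CPM and quiescent B cells 150, 149, 164 and 162 CPM. Every tumor library lay below every control library, and the spread among spleen tumors was 20.6-fold where that among quiescent libraries was 1.10-fold. The log2 change was -1.34 ± 0.30 over quiescent (adjusted p = 0.00101) and -1.15 ± 0.28 over activated B cells (adjusted p = 0.00213). The comparison with activated cells lost its call with spleen tumors only (-1.21, adjusted p = 0.0664) and with the Y-linked level as a covariate (-0.83, adjusted p = 0.277). Activated over quiescent B cells gave -0.19 ± 0.34 (adjusted p = 0.649), and the libraries of these groups overlapped between 149 and 154 CPM.

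BCL2L1, the second survival gene, ran the other way. From lowest through median to highest, its level was 22.3, 88.6 and 150 CPM in MLN tumors and 10.1, 25.0 and 192 CPM in spleen tumors. Activated B cells had 51.9, 56.3, 53.1, 49.5 and 49.5 CPM and quiescent B cells 8.01, 7.95, 9.01 and 9.90 CPM. Tumors began just above the quiescent range and ended far above the activated one, and activated cells did not overlap with quiescent cells. The rise over quiescent B cells was 7.41-fold in tumors (log2 2.89 ± 0.52, adjusted p = 0.000169) and 5.71-fold in activated cells (log2 2.51 ± 0.53, adjusted p = 0.000654), the second a call lost with quantile normalization (2.26, adjusted p = 0.0581). Tumors and activated cells were not called different (log2 0.38 ± 0.41, adjusted p = 0.438). Without the 4 low-immunoglobulin tumor libraries that difference was 0.93 and called (adjusted p = 0.0489), and without mouse 1616 it was -0.10.

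Read library by library, the 2 genes traded places. The 3 tumors with the least BCL2 were spleen 1611 at 5.56, spleen 1616 at 9.53 and MLN 1616 at 16.4 CPM, and they had 131, 192 and 150 CPM of BCL2L1. The 3 with the least BCL2L1 were spleen 1610 at 10.1, spleen 1615 at 13.7 and spleen 1612 at 17.9 CPM, and they had 115, 91.9 and 99.8 CPM of BCL2. The log2 ratio of BCL2L1 to BCL2 therefore ran from -3.50 in spleen tumor 1610 to 4.55 in spleen tumor 1611, against -1.59 to -1.25 in activated and -4.23 to -4.04 in quiescent B cells. Since lengths are not accounted for, the ratio orders libraries and does not say which transcript is more abundant. The 3 tumors at its low end are among the 4 of low immunoglobulin share, at 1.13%, 1.03% and 1.66%, and the 3 at its high end held 17.5%, 18.2% and 24.6% immunoglobulin counts. Spleen tumor 1611 also had the highest mean log2 level of neutrophil (7.63) and erythroid markers (8.57) of all libraries, and the part of those cells was not tested.

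**Figure D2:**
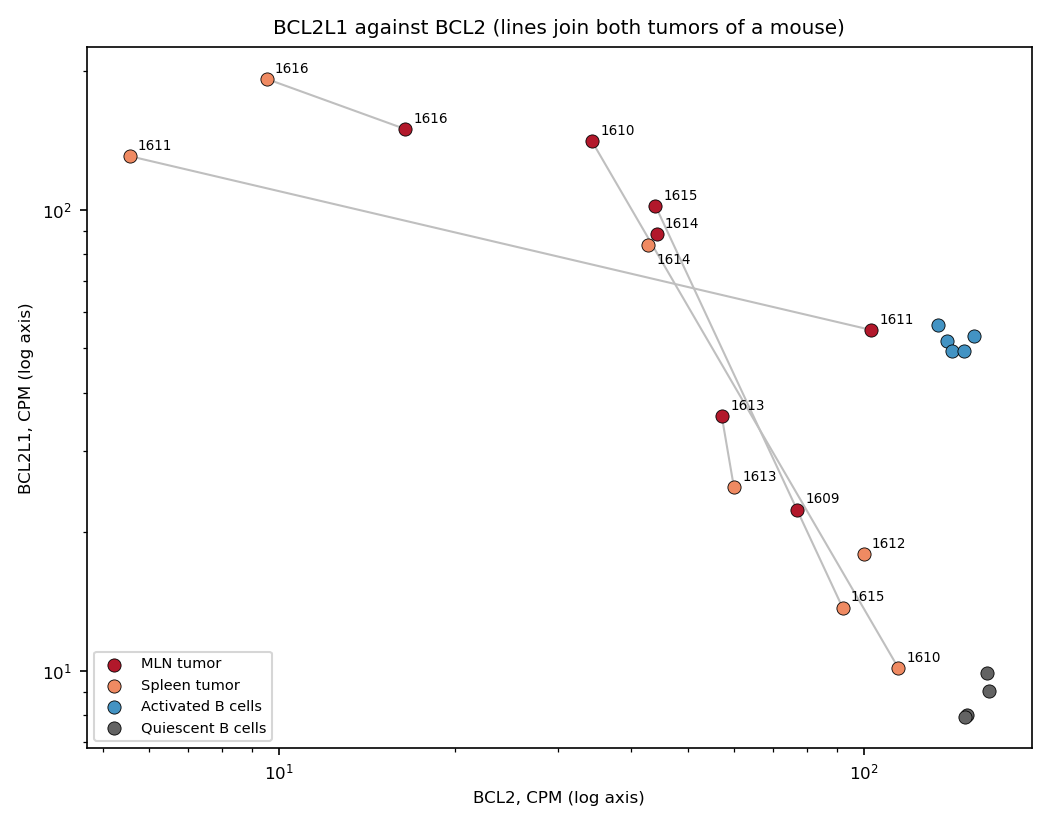
BCL2L1 against BCL2 in each library, both in CPM on log axes, with tumor points numbered by mouse and grey lines joining both tumors of a mouse. Tumors run from spleen 1610 beside the quiescent libraries at lower right to spleen 1611 and both tumors of 1616 at upper left, and the tumors of mice 1610, 1611 and 1615 stand far apart.

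MCL1, the survival gene on which plasma cells depend, lay between the control groups. The lowest, median and highest level was 680, 770 and 1288 CPM in MLN tumors and 498, 788 and 963 CPM in spleen tumors. Activated B cells had 620, 616, 652, 635 and 646 CPM and quiescent B cells 1084, 1058, 1121 and 1113 CPM. Of the tumor libraries, only MLN 1611 exceeded the quiescent range, and 2 spleen tumors lay below the activated one. Tumors were lower than quiescent (log2 -0.46 ± 0.10, adjusted p = 0.000599) and higher than activated B cells (log2 0.39 ± 0.09, adjusted p = 0.00132), and activated were lower than quiescent B cells (log2 -0.85 ± 0.11, adjusted p = 3.93e-06). Without the 4 low-immunoglobulin libraries the change over activated cells was 0.26 and not called (adjusted p = 0.0996), and it was also lost with spleen tumors only (0.29, adjusted p = 0.0967), with the mouse as a random block (0.31, adjusted p = 0.0546) and with the Y-linked covariate (0.25, adjusted p = 0.277).

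By the profile used, BCL2A1 was the member that most separated activated B cells from both other kinds of sample. That profile was chosen by its mean over all 23 libraries, activated ones included, so the size of this difference bore on the choice. Tumors had a lowest, median and highest level of 4.27, 12.5 and 69.8 CPM in MLN tumors and 1.61, 17.7 and 27.9 CPM in spleen tumors. Activated B cells had 288, 300, 263, 251 and 254 CPM and quiescent B cells 22.7, 25.7, 19.7 and 18.1 CPM. Every activated library was above every other library, while tumors lay on both sides of the quiescent range. The log2 change was -3.68 ± 0.40 for tumors over activated (adjusted p = 1.11e-06), 3.59 ± 0.52 for activated over quiescent (adjusted p = 1.98e-05) and -0.09 ± 0.42 for tumors over quiescent B cells (adjusted p = 0.861). The sign of this last value depends on the settings, and it was 0.30 with all profiles of the name summed.

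The name BCL2A1 stands on 4 profiles in the table, which cannot be assigned to the mouse copies shown above. The values so far are of the first, the most abundant by the mean of all libraries. That profile held 26.9% to 41.9% of the reads of the name in tumors, against 62.0% to 64.4% in activated and 42.9% to 52.3% in quiescent B cells. In tumors it was not the largest at the median, with 35.6% in MLN and 36.7% in spleen tumors, where the second held 53.1% and 52.0%. The second profile moved like the first, with a log2 change of -2.48 ± 0.33 for tumors over activated (adjusted p = 7.85e-06) and 0.25 ± 0.36 for tumors over quiescent B cells (adjusted p = 0.548). In the third the lowest, median and highest level was 0.675, 5.0 and 40.2 CPM in MLN tumors and 1.18, 3.29 and 18.2 CPM in spleen tumors, against 3.83, 4.77 and 5.91 CPM in activated and 0.491, 1.22 and 1.99 CPM in quiescent B cells. It was higher in tumors than in quiescent B cells (log2 2.79 ± 0.67, adjusted p = 0.00169) and not called against activated cells (log2 0.87 ± 0.54, adjusted p = 0.171). All 3 were called higher in activated than in quiescent B cells, at 3.59, 2.73 (adjusted p = 4.01e-05) and 1.92 ± 0.67 (adjusted p = 0.0216) for profiles 1, 2 and 3. Whether the profiles differ in their change was not tested. The fourth was at or near 0 and was not tested, and reads of such close copies may be split between them in ways the table does not show.

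**Figure D3:**
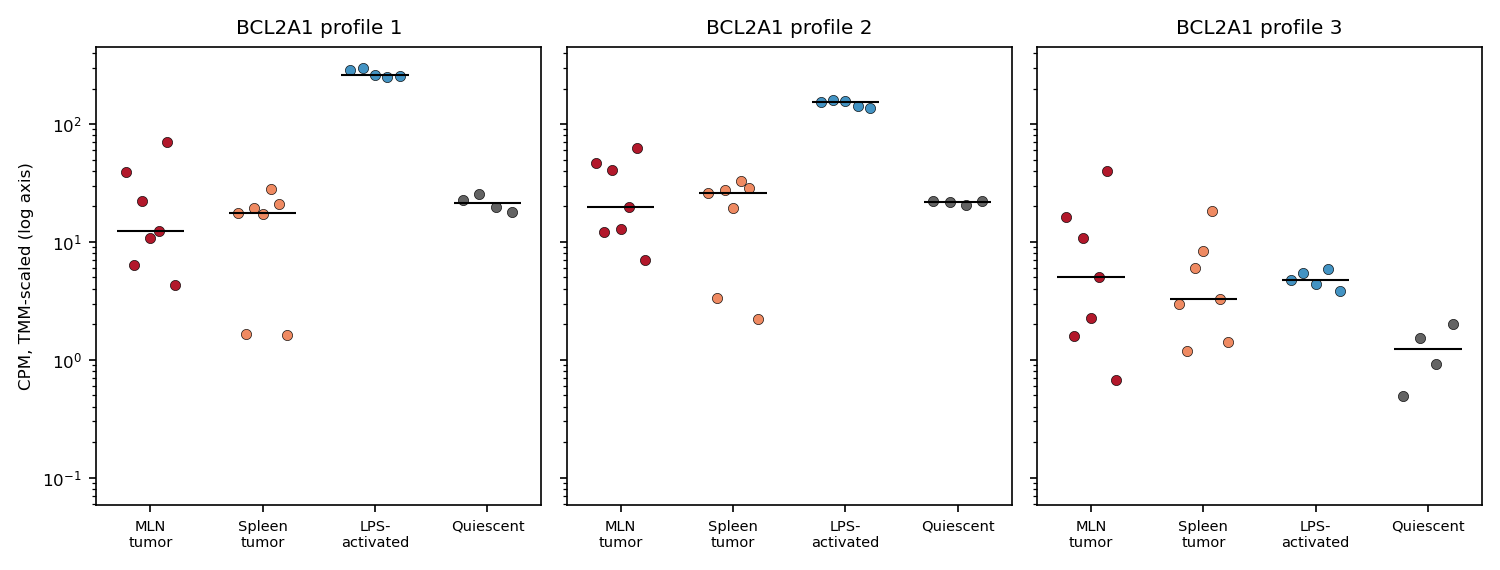
The 3 BCL2A1 profiles above the filter, in CPM on a shared log axis, with 1 point per library and a bar at the group median. In profiles 1 and 2 the activated libraries stand above all others, and in profile 3 their 3.83 to 5.91 CPM lie inside the tumor range.

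Of the pore-forming effectors, both were called higher in tumors and in activated cells than in quiescent cells. BAX, an effector that moves from the cytosol to mitochondria, lay between 75.0 and 180 CPM in MLN tumors and between 72.3 and 110 CPM in spleen tumors, against 89.0 to 104 CPM in activated and 52.7 to 63.4 CPM in quiescent B cells. All tumors were above all quiescent libraries, with a log2 change of 0.66 ± 0.16 (adjusted p = 0.0015), and activated cells were higher than quiescent ones by 0.59 ± 0.17 (adjusted p = 0.00608). Tumors over activated cells gave 0.07 ± 0.14 (adjusted p = 0.684), with a negative sign in several settings.

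BAK1, the effector that sits in the mitochondrial membrane, lay between 52.9 and 103 CPM in MLN tumors and between 38.5 and 120 CPM in spleen tumors, against 93.7 to 112 CPM in activated and 55.3 to 59.4 CPM in quiescent B cells. Tumors overlapped with both control groups. They were called higher than quiescent B cells (log2 0.41 ± 0.14, adjusted p = 0.0198) and lower than activated ones (log2 -0.38 ± 0.13, adjusted p = 0.0178), while activated over quiescent gave 0.79 ± 0.16 (adjusted p = 0.000429). The call over quiescent cells was lost without the 4 low-immunoglobulin libraries (0.29, adjusted p = 0.106), without quiescent library 4 (0.39, adjusted p = 0.0505), with MLN tumors only (0.28, adjusted p = 0.144), with 14 tumor libraries taken singly (0.39, adjusted p = 0.0979) and with the mouse as a random block (0.34, adjusted p = 0.142). That over activated cells was lost with spleen tumors only (-0.34, adjusted p = 0.133) and with the Y-linked covariate (-0.53, adjusted p = 0.139). Within tumors the log2 ratio of BAX to BAK1 ran from -0.47 in spleen 1615 to 1.75 in MLN 1616, against -0.23 to -0.07 in activated and -0.17 to 0.13 in quiescent B cells.

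Among the BH3-only genes, BBC3 showed the steepest difference from quiescent cells. The gene encodes PUMA, which binds all survival proteins of the family. Among tumors the lowest, median and highest level was 16.5, 45.2 and 62.2 CPM in MLN tumors and 10.3, 16.8 and 96.3 CPM in spleen tumors. Activated B cells had 43.7, 43.0, 42.4, 45.3 and 47.2 CPM and quiescent B cells 3.05, 3.92, 3.48 and 2.99 CPM. No tumor or activated library overlapped with the quiescent ones, and tumors lay on both sides of the activated range. The rise over quiescent B cells was 8.99-fold in tumors (log2 3.17 ± 0.40, adjusted p = 7.06e-06) and 12.6-fold in activated cells (log2 3.65 ± 0.42, adjusted p = 1.75e-06). Tumors over activated cells were not called (log2 -0.48 ± 0.30, adjusted p = 0.171), but they were called lower without mouse 1616 (-0.89, adjusted p = 0.000989), with limma-voom (-0.66, adjusted p = 0.0418) and with the Y-linked covariate (-1.80, adjusted p = 0.0216).

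BCL2L11 encodes BIM, the BH3-only protein that restrains B cell numbers and is known to mediate death in MYC-driven B cell tumors. Its lowest, median and highest level was 112, 240 and 366 CPM in MLN tumors and 69.2, 122 and 680 CPM in spleen tumors. Activated B cells had 113, 128, 154, 136 and 153 CPM and quiescent B cells 72.4, 68.3, 69.4 and 71.1 CPM. Only spleen tumor 1612, at 69.2 CPM, reached into the quiescent range, and the highest tumors were spleen 1616 and spleen 1611 at 680 and 489 CPM, the same 2 that had the least BCL2. Tumors were higher than quiescent B cells (log2 1.62 ± 0.39, adjusted p = 0.00165). Tumors over activated cells gave 0.72 ± 0.34 (adjusted p = 0.0742), which was called without the 4 low-immunoglobulin libraries (1.2, adjusted p = 0.00322), without mouse 1612 (0.85, adjusted p = 0.0164), without mouse 1609 (0.82, adjusted p = 0.0418), with MLN tumors only (0.81, adjusted p = 0.00603) and with DESeq2 (0.74, adjusted p = 0.0416). The same change was 0.34 without mouse 1616, and it turned to -0.53 with the Y-linked covariate (adjusted p = 0.539). Activated over quiescent cells gave 0.90 ± 0.40 (adjusted p = 0.0626), with no overlap of their libraries, as for 67.9% of all genes. In a fit of those groups alone, where 75.1% of all genes were called, the change was called (0.99, adjusted p = 2.14e-07), as with DESeq2 (0.95, adjusted p = 0.0268).

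PMAIP1 encodes NOXA, a BH3-only protein that binds chiefly MCL1 and A1. It lay between 23.8 and 78.1 CPM in MLN tumors and between 19.6 and 93.3 CPM in spleen tumors, against 23.8 to 30.7 CPM in activated and 16.2 to 24.8 CPM in quiescent B cells. Tumors overlapped with both, and were called higher than quiescent (log2 0.97 ± 0.22, adjusted p = 0.00122) and than activated B cells (log2 0.64 ± 0.20, adjusted p = 0.0114). The second call was lost with spleen tumors only (0.76, adjusted p = 0.0836), with all 14 tumor libraries taken singly (0.66, adjusted p = 0.0699), with the mouse as a random block (0.47, adjusted p = 0.158) and with the Y-linked covariate (0.28, adjusted p = 0.620). Activated over quiescent cells gave 0.34 ± 0.24 (adjusted p = 0.232), which was called in a fit of those groups alone (0.43, adjusted p = 0.00515) and with a block on the library number (0.48, adjusted p = 0.000452).

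BID, which links death receptors to mitochondria once caspase-8 has cut it, lay between 28.8 and 96.2 CPM in MLN tumors and between 32.7 and 136 CPM in spleen tumors, against 149 to 173 CPM in activated and 76.7 to 79.8 CPM in quiescent B cells. All tumors were below all activated libraries and lay on both sides of the quiescent ones. The log2 change was -1.03 ± 0.11 for tumors over activated (adjusted p = 1.32e-06), 1.02 ± 0.14 for activated over quiescent (adjusted p = 1.01e-05) and -0.01 ± 0.12 for tumors over quiescent B cells (adjusted p = 0.932). CASP8, the caspase that cuts it, was lower in tumors than in quiescent (log2 -0.68 ± 0.13, adjusted p = 0.000316) and activated B cells (log2 -0.53 ± 0.12, adjusted p = 0.00124), although over the alternatives the adjusted p against activated cells reached 0.650.

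**Figure D4:**
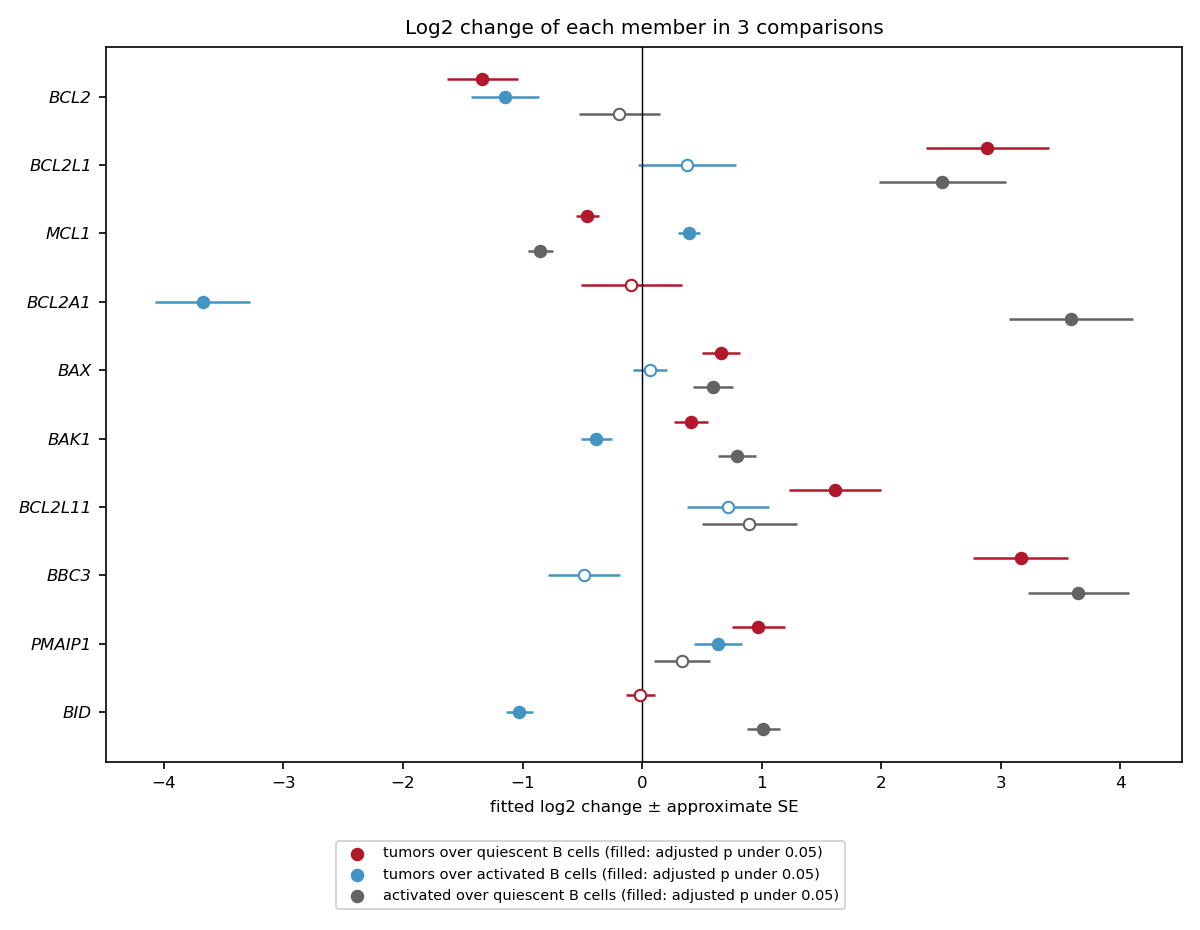
Fitted log2 change of each member, with bars of 1 approximate SE, for tumors over quiescent, tumors over activated and activated over quiescent B cells, with filled points called at an adjusted p under 0.05. BCL2 lies left of 0 in both tumor comparisons, and the BCL2A1 profile used has its largest changes, -3.68 and 3.59, in the comparisons that involve activated cells.

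Tumors of the lymph node and the spleen were compared over 7 libraries each. By edgeR 0 of the 10 members and 0% of all genes were called. At an unadjusted p under 0.05 the edgeR fit gave 1 member, BAX, and 511 genes, while DESeq2 called 20 genes and no member. BAX was 0.42 ± 0.18 higher on the log2 scale in MLN than in spleen tumors (adjusted p = 1.00), and higher in the MLN tumor in 5 of the 6 mice with both. With the mouse as a replicate block 0 members reached an unadjusted p under 0.05.

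Within single mice both tumors could lie far apart. The log2 difference of MLN over spleen tumor within a mouse ran from -1.74 (mouse 1610) to 4.21 (mouse 1611) for BCL2, with 3 mice up and 3 down, and from -1.25 (mouse 1611) to 3.8 (mouse 1610) for BCL2L1, with 4 up and 2 down. In mouse 1610 the MLN tumor had 141 CPM of BCL2L1 and 34.3 CPM of BCL2, and its spleen tumor 10.1 and 115 CPM. Mouse 1615 was alike, with 102 CPM of BCL2L1 and 44.0 CPM of BCL2 in the MLN tumor and 13.7 and 91.9 CPM in the spleen tumor. Mouse 1611 was the reverse, with 54.8 CPM of BCL2L1 and 103 CPM of BCL2 in the MLN tumor and 131 and 5.56 CPM in the spleen tumor. In each of these 3 mice one of the tumors was among the 4 of low immunoglobulin share. Other markers differed in the same pairs. The mean log2 level of mature B cell markers was 7.37 and 9.91 in the MLN tumors of mice 1610 and 1611, against 10.26 and 3.55 in their spleen tumors, and mouse 1615 was like mouse 1610. In mouse 1610 the T cell markers averaged 5.87 in the MLN and 1.86 in the spleen tumor, and in mouse 1615 the macrophage markers averaged 7.46 and 4.26. In mouse 1611 the neutrophil markers averaged 4.17 in the MLN and 7.63 in the spleen tumor, and the erythroid markers 4.02 and 8.57. Their part in the differences was not tested. In mice 1613, 1614 and 1616, where both tumors were above it, BCL2L1 differed by 0.51, 0.08 and -0.36 and BCL2 by -0.07, 0.05 and 0.78.

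The 3 genes whose levels ran most like each member's are given as a description, by Pearson's r of log2(CPM + 1) across libraries that share mice and groups. Over all 23 libraries, those most like BCL2 were VAV2, CASP8 and ARF3 (r = 0.98 each). For BCL2L1 they were ZBP1 (0.97), POGK (0.95) and ARID3A (0.95), and for MCL1 GRAMD1A (0.92), PLGRKT (0.91) and CLEC2D (0.89). BCL2A1 had another profile of the same name (0.98), NABP1 (0.97) and SERPINA3 (0.96). BCL2L11 ran with P4HB, a folding enzyme of the endoplasmic reticulum, STC2 and SLCO4A1 (0.96 each), and BBC3 with SLC7A5, an amino acid transporter, CCND2, a G1 cyclin, and ASNS, asparagine synthetase (0.96 each). The effector BAX ran with POLR2L, PARK7 and CDC37 (0.94 each), and BAK1 with CORO1C (0.93), CA13 (0.93) and RFWD3 (0.92). PMAIP1 had ATP6AP2 (0.93), CLIP1 (0.91) and the lysosomal membrane gene LAMP1 (0.91), and BID had CSTF2 (0.97), HNRNPR (0.96) and HNRNPA0 (0.94), whose products bind RNA.

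Over the 14 tumor libraries alone, BCL2 ran with NFKBIE, IRF2 and MICAL1 (0.98 each), and BCL2L1 with RPS6KA2, TRIB1 and ZBP1 (0.98 each). BCL2L11 shared TRIB1 with BCL2L1 and also had DEGS1 and STC2 (0.97 each). BBC3 had GPT2, an alanine aminotransferase (0.99), SLC1A4, an amino acid transporter (0.97), and TBRG1 (0.97). For MCL1 they were PLGRKT (0.91), CCNL1 (0.90) and GRAMD1A (0.88), and for BCL2A1 GNGT2 (0.98), another profile of its name (0.98) and RUNX1 (0.97). BAX had TUBA3C (0.95), MDH1 (0.94) and POLR2L (0.94), BAK1 GAPT (0.94), CA13 (0.93) and CORO1C (0.93), PMAIP1 BACH1 (0.95), CLN3 (0.95) and NCSTN (0.93), and BID CSTF2 (0.96), CIPC (0.94) and TCF3 (0.93). ZBP1, STC2, PLGRKT, GRAMD1A, POLR2L, CA13, CORO1C and CSTF2 stood among the 3 nearest both over all libraries and over tumors.

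Around the members, 66 further genes of the death and survival pathway were listed in 6 groups, and 53 of them were tested. In tumors over quiescent B cells 19 were called higher and 18 lower, 69.8% in all, beside the 68.7% of all genes. In tumors over activated cells 8 were higher and 26 lower, 64.2% beside 63.2%, and in activated over quiescent cells 25 were higher and 11 lower, 67.9% beside 59.5%.

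The mitochondrial death machinery downstream of the effectors had 8 of 13 tested genes higher and 3 lower in tumors than in quiescent cells, and 1 higher and 7 lower than in activated cells. Activated cells had 8 higher and 2 lower than quiescent ones. CASP6, an executioner caspase, lay between 8.77 and 21.5 CPM in MLN and between 6.02 and 22 CPM in spleen tumors, against 65.9 to 81.0 CPM in activated and 19.9 to 23.2 CPM in quiescent B cells, and fell by 2.15 on the log2 scale in tumors relative to activated cells (SE 0.16, adjusted p = 2.21e-08).

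Of the 5 inhibitors of apoptosis tested, 1 was higher and 3 were lower in tumors than in quiescent cells. The one that was higher is BIRC5 (survivin), which is also a mitosis gene, at 4.76 ± 0.33 (adjusted p = 5.43e-08), and activated cells were 4.34 ± 0.33 higher in it than quiescent cells (adjusted p = 2.45e-08). The list of 4 proliferation markers includes BIRC5 itself, and all of them were called higher in tumors and in activated cells than in quiescent ones. BIRC3 was lower in tumors than in quiescent cells by -0.83 ± 0.22 (adjusted p = 0.00344).

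The death receptor arm had 3 of 9 higher and 3 lower over quiescent cells, and 2 higher and 4 lower over activated cells. TNFRSF1A, the main TNF receptor, lay between 15.3 and 82.6 CPM in MLN and between 5.56 and 125 CPM in spleen tumors, against at most 0.480 CPM in activated and 3.8 CPM in quiescent B cells. It rose by 4.32 ± 0.57 over quiescent (adjusted p = 1.22e-05) and by 7.54 ± 0.65 over activated cells (adjusted p = 1.02e-07). Myeloid cells also express this receptor, and the macrophage markers given above were higher in the same comparison, with their part not tested. TNFSF10 (TRAIL) rose by 3.83 ± 0.40 over activated cells (adjusted p = 7.72e-07). It was 1.76 lower on the log2 scale in activated than in quiescent cells by edgeR (-1.76 ± 0.40, adjusted p = 0.00133), a call that limma-voom (adjusted p = 0.121) and quantile normalization (adjusted p = 0.266) did not give.

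Of 12 other BCL2 family genes tested, 4 were higher and 4 lower in tumors than in quiescent cells, and 4 higher and 3 lower than in activated cells. BCL2L15, a lesser-known relative of the family, had 1.01, 6.26 and 21.7 CPM (lowest, median, highest) in MLN tumors and 0.372, 2.07 and 26.3 CPM in spleen tumors, against 0.930, 1.37 and 2.27 CPM in activated and 0.489, 0.522 and 0.618 CPM in quiescent B cells. Tumor libraries overlapped with both control groups. It was higher in tumors than in quiescent (log2 3.70 ± 0.62, adjusted p = 0.000102) and activated cells (log2 2.34 ± 0.51, adjusted p = 0.000854). Both calls were lost with quantile normalization (adjusted p = 0.105 and 0.655) and with the mouse as a random block (adjusted p = 0.0824 and 0.201), and that over activated cells also with spleen tumors only (adjusted p = 0.0575) and with the Y-linked covariate (adjusted p = 0.457). BMF, a BH3-only gene, was lower in tumors than in quiescent cells (-0.94 ± 0.27, adjusted p = 0.00561), a call lost without the 4 low-immunoglobulin libraries (-0.54, adjusted p = 0.0894), with spleen tumors only (adjusted p = 0.172), with 14 libraries taken singly (adjusted p = 0.0658) and with the Y-linked covariate (adjusted p = 0.0711). It was lower in activated than in quiescent cells (-1.84 ± 0.31, adjusted p = 7.97e-05). BNIP3, a hypoxia-induced mitophagy gene, was the one most lowered among the wider genes in tumors over activated cells (-3.26 ± 0.45, adjusted p = 1.37e-05) and was 3.46 ± 0.60 higher in activated than in quiescent cells (adjusted p = 0.00012).

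Of 8 transcription factors known to act on BH3-only genes, 1 was higher and 3 were lower in tumors than in quiescent cells, and 1 higher and 6 lower than in activated cells. FOXO1, known to act on BIM transcription, was lower in tumors than in quiescent cells (-1.26 ± 0.23, adjusted p = 0.000232), and activated were lower than quiescent cells (-1.08 ± 0.26, adjusted p = 0.00224). BCL2L11 was higher in the same tumors, and a relation of these RNA levels was not tested. E2F1, a cell cycle factor, was the one higher in tumors than in quiescent cells (1.82 ± 0.20, adjusted p = 1.71e-06), and was 2.35 ± 0.21 higher in activated than in quiescent cells (adjusted p = 1.29e-07). STAT5A was lower in tumors than in activated cells (-1.98 ± 0.13, adjusted p = 9.06e-09). Of 6 genes tested that act on the turnover of MCL1 and BIM proteins, 2 were higher and 2 lower over quiescent cells, and 0 higher and 4 lower over activated cells.

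**Figure D5:**
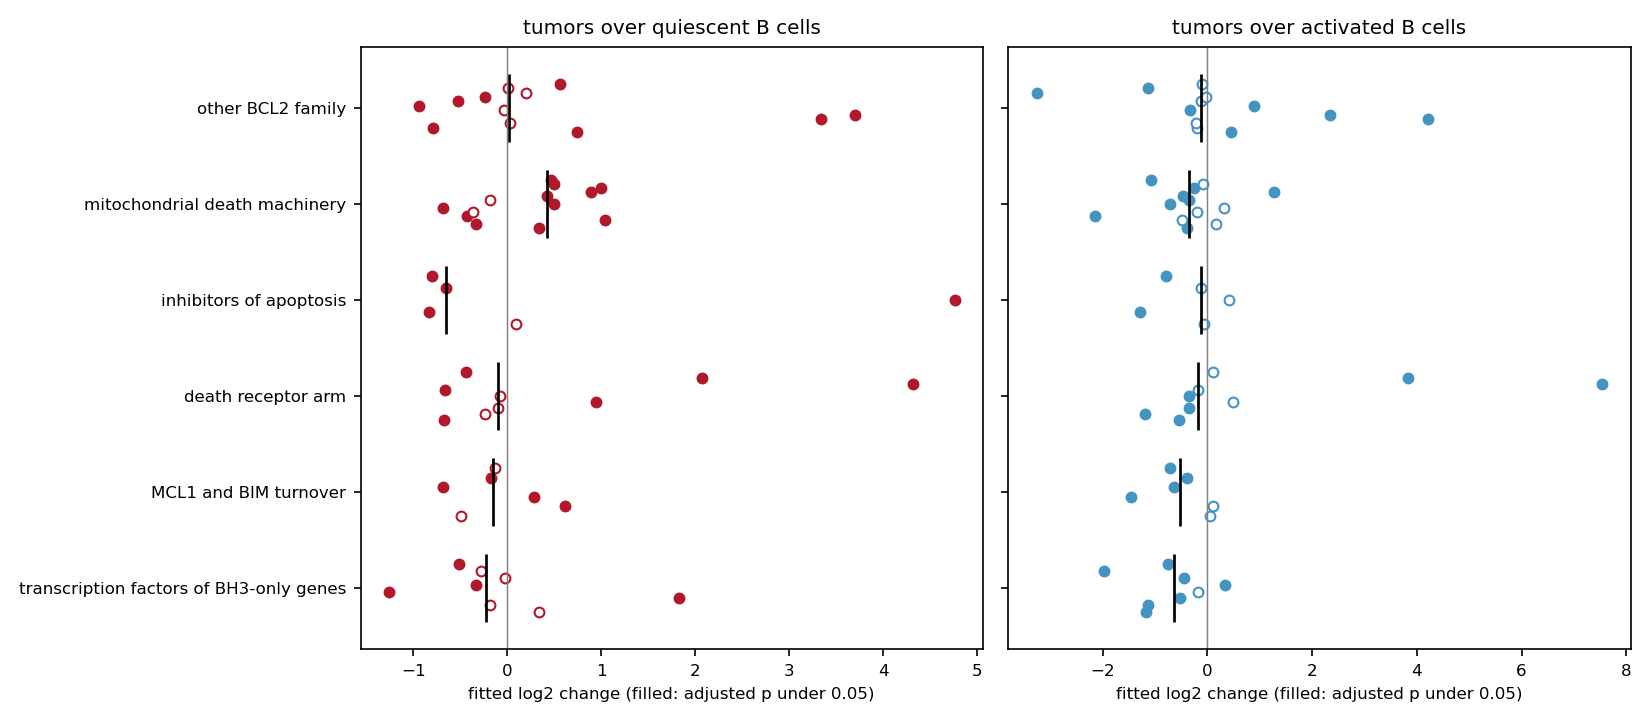
Fitted log2 changes of the tested genes of 6 wider groups, in tumors over quiescent (left) and over activated B cells (right), with filled points called and a bar at each group's median. The mitochondrial death machinery has its median at 0.42 over quiescent and -0.36 over activated cells.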

How the data were processed

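RNA was measured in 23 libraries by stranded total RNA sequencing, per the labels. The authors' deposited table holds estimated counts: its name speaks of TPM, but its values are not whole and total 13328866 to 25045814 per library. Per the submitters' processing notes, Trim Galore 0.4.0 and DESeq2 were used on build GRCm39. Not given in the sources used here are the quantifier, the annotation and how mouse genes came to carry human names. Of 61651 entries, 17047 were above 0 in any library, and identical ones were merged into 15881 profiles.

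Values were rounded and tested with edgeR 4.0.16 (quasi-likelihood, TMM, 2-sided) in R 4.3.3. The test took genes that reached 1 CPM in at least 4 libraries, with p-values adjusted by Benjamini-Hochberg over 11637 genes and a threshold of 0.05. The SE is approximate, the size of the log2 change over the square root of the F statistic. Both tumors of a mouse were summed for comparisons with controls. MLN and spleen tumors were compared as single libraries, with the mouse as a block as the alternative. Equal numbers mark 1 animal per the series' design text, with deviations from the tissue means that correlated between -0.49 (mouse 1615) and 0.72 (mouse 1616) in the 6 pairs. Nothing in the labels tells whether the control libraries are from different animals, and p-values then measure the spread between these libraries, which may be technical. DESeq2 1.42.0 and limma 3.58.1 were alternatives. The procedure was tested on simulated data.

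The members, the gene lists and the alternatives were chosen with earlier results of these data known. In each comparison the members and, of the wider genes, the 3 largest rises and the 3 largest falls among calls above a level minimum are named. The 3 genes most like each member by Pearson's r are named too. A further gene list is not reported here. A gene at few CPM, such as the lesser BCL2A1 profiles, rests on few reads and is less precise.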

Additional observations from a re-analysis of the deposited data

Results flagged for a closer look

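Of 40 combinations of a member and a group, 4 had a library whose gap to the next was large against the range of its group, and chance gives about 1 in 20. In spleen tumors BBC3 was highest in mouse 1616, at 96.3 CPM. In MLN tumors PMAIP1 was highest in mouse 1615, at 78.1 CPM. The other 2 were in control groups of narrow range, BAX highest in activated library 1, at 104 CPM, and BID highest in quiescent library 1, at 79.8 CPM.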

How the results depend on the processing

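With a fold of at least 2 asked for, 4 members were called in tumors over quiescent, 3 in tumors over activated and 4 in activated over quiescent B cells. Tumors over activated cells gave 2 members with spleen tumors only and 3 with the Y-linked level as covariate. Of all genes, 48.8% and 38.1% were called in these settings, against 63.2% in the main fit. Leaving out single mice or libraries gave 7 to 8 members called in tumors over quiescent, 6 to 7 in tumors over activated, 7 in activated over quiescent and 0 in MLN over spleen tumors. Other settings kept these counts within 1.5 times. Without the 4 low-immunoglobulin libraries, chosen after seeing the data, 7, 7 and 0 members were called over quiescent, over activated and in MLN over spleen tumors. Activated and quiescent libraries share only a number (correlations -0.018 to 0.0025), and a replicate block on it gave 9 members, as did a fit of the 2 groups alone. Of all genes, 72.4% and 75.1% were called in these fits. With the mouse as a replicate block 0 members were called in MLN over spleen tumors, as over the 6 mice without it. For that comparison a fit of only its groups is the reported one.

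Signs turned for log2 changes that were not called, and the cause was not tested. BCL2A1 in tumors over quiescent cells was 0.30 with profiles summed, 0.13 with MLN tumors only, 0.062 with the Y-linked covariate, 0.048 without the low-immunoglobulin libraries and -0.32 (without mouse 1615) to 0.071 (without 1616) with single samples left out. BID there was 0.056 with DESeq2 and with its size factors, 0.076 with quantile normalization, 0.068 at 10 CPM, 0.0057 with only those groups, 0.034 with spleen tumors only and -0.066 to 0.052 with single samples left out. In tumors over activated cells BCL2L1 was -0.065 with a random mouse block, -1.28 with the Y-linked covariate and -0.10 to 0.52 with single samples left out. BCL2L11 was -0.53 with that covariate, and BAX -0.53 with it, -0.12 with spleen tumors only and -0.16 to 0.12 with single samples left out. In MLN over spleen tumors, quantile normalization, limma-voom and the replicate block gave 0.23, 0.16 and 0.16 for BCL2 and 0.33, 0.31 and 0.27 for BCL2L11, and quantile normalization and limma-voom gave 0.021 and 0.057 for PMAIP1. Without the low-immunoglobulin libraries BCL2 was 0.64, BCL2L1 -0.28, BBC3 -0.11, BID 0.18 and MYC -0.12. With single mice left out, BCL2 lay at -0.61 to 0.16, BCL2L1 at -0.056 to 0.66, MCL1 at -0.027 to 0.22, BCL2L11 at -0.42 to 0.25, PMAIP1 at -0.49 to 0.14, BID at -0.35 to 0.12 and MYC at -0.093 to 0.57. Quantile normalization moved the median log2 change of all genes to -0.13 over quiescent and -0.14 over activated cells, from 0.08 and 0.09, and among its lost calls were those of BAK1 (-0.33, adjusted p = 0.0604) and PMAIP1 (0.50, adjusted p = 0.0659) over activated cells.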
